A study of Homo sapiens with 12 samples.

Results

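The CCT chaperonin (chaperonin containing TCP1, also called TRiC) is built from 8 subunits, and the genes of all 8, TCP1, CCT2, CCT3, CCT4, CCT5, CCT6A, CCT7 and CCT8, were followed here in hepatocellular carcinoma cells after DAAD2, a dehydroabietylamine derivative. Members were taken as every probe set (a set of short probes against one transcript) that the platform annotation gives one of these symbols. This found 15 probe sets for the 8 subunits among 54613 probe sets, and for comparison 19775 genes have a probe set of a single symbol, all members but TCP1 among them. Of the 15 probe sets 12 carry a single symbol. The other 3, those of TCP1, also list SNORA29, a small nucleolar RNA whose coordinates lie within TCP1, so signal of the host gene and of the small RNA cannot be told apart on them. Where a subunit had more than 1 probe set, the one with the highest mean over all arrays stood for the gene.

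The total RNA of 4 groups, 3 arrays to a group, was hybridised to U133 Plus 2.0 expression arrays of Affymetrix (12 in all). Hep3B cells, labelled DAAD2-sensitive, received 2 μM DAAD2 for 72 h, against Hep3B cells with 0.1% DMSO, and SNU449 cells, labelled DAAD2-resistant, received 20 μM DAAD2 for 72 h, against SNU449 cells with 0.1% DMSO. Each line is one cell line, and the dose differs with the line, so a difference between the 2 responses is also a difference between doses. Treatments were done in triplicate, and the study describes its data in general as from independent experiments, but for the arrays it does not say whether replicates stem from cultures of their own, so the spread behind each p-value is that between arrays and may be technical. Levels are log2 values that the authors made by RMA, and they are compared within a probe set only.

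CCT is a cytosolic folding machine made of paired rings, each holding 1 copy of every subunit around a central cavity. It binds newly made proteins, closes over them in a cycle driven by ATP and releases them folded. Actin and tubulin are its classic obligate substrates, handed over by the prefoldin hexamer, and tubulin then passes to the tubulin cofactors that build the αβ dimer. Other substrates include the WD40 proteins CDC20 and the G protein β subunits, and cyclin E. All 8 subunits are needed for a working complex, and in dividing cells their expression is high.

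The genes are spread over 7 chromosomes in the RefSeq annotation of GRCh38.p14: CCT3 on chromosome 1 (156308968 to 156338292), CCT4 (61868085 to 61888671) and CCT7 (73234308 to 73253005) on chromosome 2, CCT5 on chromosome 5 (10249921 to 10266412), TCP1 on chromosome 6 (159778498 to 159789602), CCT6A on chromosome 7 (56051765 to 56063989), CCT2 on chromosome 12 (69585459 to 69601570) and CCT8 on chromosome 21 (29056326 to 29073648). RefSeq promoter windows, 250 bases before a start and 50 from it on, were matched for 7 of the 8 subunits (9 windows), with CCT6A unmatched. The window of CCT5 belongs to a start that lies 616 bases inside the gene, and it holds no match to the motifs searched. Of the 2 windows of CCT4, that of a start 15 bases inside the gene holds a match and that at the gene edge holds none. Since all 8 subunits had the higher mean in Hep3B with DAAD2, 5 of the 9 windows of GRCh38.p14 are shown. All of the windows shown hold a match to the motifs searched, in capitals, so they do not stand for the windows without one. The windows shown are those of TCP1 (chr6:159789553-159789852, minus strand), CCT2 (chr12:69585209-69585508, plus strand), CCT3 (chr1:156338243-156338542, minus strand), CCT4 (chr2:61888607-61888906, minus strand) and CCT8 (chr21:29073599-29073898, minus strand), each read 5′ to 3′ on its own strand.
TCP1: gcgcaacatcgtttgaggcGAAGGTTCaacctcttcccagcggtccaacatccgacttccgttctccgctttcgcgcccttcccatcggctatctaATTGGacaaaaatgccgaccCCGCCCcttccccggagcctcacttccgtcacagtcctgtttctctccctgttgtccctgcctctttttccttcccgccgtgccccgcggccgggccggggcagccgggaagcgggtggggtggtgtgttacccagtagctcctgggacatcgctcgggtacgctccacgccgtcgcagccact
CCT2: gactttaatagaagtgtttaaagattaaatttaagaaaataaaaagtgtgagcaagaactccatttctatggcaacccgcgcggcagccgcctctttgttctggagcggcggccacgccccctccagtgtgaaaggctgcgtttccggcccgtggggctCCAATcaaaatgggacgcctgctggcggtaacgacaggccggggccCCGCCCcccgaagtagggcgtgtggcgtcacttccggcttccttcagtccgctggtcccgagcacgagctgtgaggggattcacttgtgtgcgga
CCT3: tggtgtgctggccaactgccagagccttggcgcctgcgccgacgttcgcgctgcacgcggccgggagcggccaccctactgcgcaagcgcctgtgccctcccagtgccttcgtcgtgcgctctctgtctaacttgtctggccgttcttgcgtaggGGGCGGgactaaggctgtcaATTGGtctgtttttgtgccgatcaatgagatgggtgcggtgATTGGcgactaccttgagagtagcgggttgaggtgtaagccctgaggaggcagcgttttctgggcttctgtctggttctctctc
CCT4: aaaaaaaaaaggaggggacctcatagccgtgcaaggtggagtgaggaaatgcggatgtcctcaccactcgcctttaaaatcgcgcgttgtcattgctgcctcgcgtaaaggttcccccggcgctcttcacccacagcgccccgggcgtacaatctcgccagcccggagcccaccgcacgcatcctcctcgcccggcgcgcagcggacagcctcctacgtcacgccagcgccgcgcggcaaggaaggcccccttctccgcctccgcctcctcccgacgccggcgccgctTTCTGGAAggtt
CCT8: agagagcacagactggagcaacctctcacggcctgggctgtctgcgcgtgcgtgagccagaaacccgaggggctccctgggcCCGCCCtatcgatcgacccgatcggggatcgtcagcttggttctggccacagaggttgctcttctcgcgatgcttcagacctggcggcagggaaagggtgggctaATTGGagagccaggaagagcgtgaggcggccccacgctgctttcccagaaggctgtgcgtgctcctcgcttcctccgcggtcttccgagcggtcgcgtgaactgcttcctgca

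The motifs, searched on both strands with N for any base, were GAANNTTC and TTCNNGAA, which are pairs of heat shock units in opposite orientation, the E-box CACGTG, the GC box written GGGCGG, the binding sequence of the factor NF-Y written CCAAT, and the TATA box written TATAAA. Matches of different motifs did not overlap in these windows. GAANNTTC stood in 2 of the 9 windows, against 6.77% of all 35116 windows: in TCP1 at -231 to -224 relative to the start at 0, and in a second window of CCT2 at -89 to -82. TTCNNGAA was found in CCT4 only, at 38 to 45, against 7.74% of all windows. GGGCGG was held by 6 of the 9 windows (CCT3, CCT7, TCP1, both of CCT2, and CCT8), against 45% of all, and CCAAT by 4 (CCT3, TCP1, CCT2 and CCT8), against 34.6%. CCT3 carried CCAAT 2 times, at -75 to -71 and at -34 to -30, both on the other strand. CACGTG and TATAAA had 0 matches in the 9 windows, against 7.26% and 11.5% of all windows. Letters alone do not show a site, and these counts are a description.

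The lines differed in most markers of hepatocyte, mesenchymal and epithelial cells, and 3 of 3 epithelial markers were higher in the Hep3B controls. Between the Hep3B and SNU449 controls, 6 of 7 hepatocyte markers were higher in Hep3B (ALB with means of 14.53 and 3.18) and FGB was lower (6.01 and 10.06), while 4 of 5 mesenchymal markers were lower in Hep3B (ZEB1 with 3.12 and 7.79) and FN1 was higher (11.56 and 10.75). Of 3 leukocyte markers CD14 was higher (5.37 and 3.32), CD3E lower (4.35 and 4.95) and PTPRC, which defines leukocytes, at 3.23 and 3.21, below the array medians of 3.71 to 3.85, and 0 of 3 endothelial markers differed (CDH5 at 2.96 and 2.95). RNA quality varied between arrays. The 3′ end minus 5′ end difference of the GAPDH control probe sets was highest on SNU449 DAAD2 replicate 2 (1.99, against 0.34 to 0.97 on the other SNU449 arrays and 0.45 to 1.51 on the Hep3B arrays), and that of ACTB was highest on Hep3B DAAD2 replicate 3 (3.27) and next on SNU449 DAAD2 replicate 2 (3.04), with 1.82 as the lowest value.

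Whether DAAD2 was followed by another level of the subunits was asked first in the sensitive line. In Hep3B the mean of every one of the 8 subunits was higher after DAAD2 than with DMSO, by 0.20 (CCT2) to 0.42 (CCT5) on the log2 scale, with a median of 0.34. The sizes were modest, with folds between 1.15 and 1.34, and in limma with Benjamini-Hochberg adjustment over all probe sets 0 of the 15 probe sets passed an adjusted p under 0.05, in a comparison where 0% of all probe sets passed. Unadjusted, 9 of the 15 (7 of the 8 that stand for a subunit) had a p under 0.05 with a higher level, against 9.53% of all probe sets, and 0 a lower one. Every DAAD2 array lay above every DMSO array for 9 of the 15 (7 of the 8), against 11% of all probe sets. With groups of 3 the smallest two-sided p of an exact permutation test would be 0.1.

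CCT5, which encodes the ε subunit, had log2 levels of 10.16, 10.35 and 10.12 in Hep3B with DAAD2, against 9.72, 9.74 and 9.91 with DMSO. These arrays did not overlap, and the difference was 0.42 (standard error 0.10, adjusted p = 0.132 from limma). CCT3, the γ subunit, stood at 11.46, 11.39 and 11.32 with DAAD2, against 10.95, 10.96 and 11.10 with DMSO. That is a difference of 0.38 (standard error 0.09, adjusted p = 0.126 from limma), again with no overlap, and the smallest adjusted p among the 8 probe sets that stand for a subunit. With a variance that follows the level and is robust to outliers, CCT3 alone of the 15 passed in Hep3B (adjusted p = 0.0426 from limma).

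TCP1, the α subunit that gave the complex its name, was at 10.56, 10.44 and 10.33 in Hep3B with DAAD2, against 10.01, 10.05 and 10.16 with DMSO. All DAAD2 arrays lay above all DMSO arrays, by a mean of 0.37 (standard error 0.10, adjusted p = 0.15 from limma). CCT7, the η subunit, had 10.40, 10.32 and 10.19 with DAAD2, against 9.84, 10.13 and 9.91 with DMSO. Here the lowest DAAD2 array was just above the highest DMSO array, and the difference was 0.34 (adjusted p = 0.208 from limma).

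For CCT6A, the ζ subunit, the levels were 10.50, 10.39 and 10.23 in Hep3B with DAAD2, against 9.81, 10.04 and 10.28 with DMSO. This is the one of the 8 whose groups overlapped in Hep3B, since DMSO replicate 3 lay above DAAD2 replicate 3, and its difference was 0.33 (adjusted p = 0.301 from limma). Its second probe set, 201326_at, gave 9.58, 9.52 and 9.52 with DAAD2, against 8.76, 8.97 and 9.21 with DMSO. There the groups were apart, with the largest difference of the 15 probe sets in Hep3B (0.56, standard error 0.12, adjusted p = 0.105 from limma).

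CCT8, the θ subunit, was measured at 11.84, 11.69 and 11.66 in Hep3B with DAAD2, against 11.39, 11.47 and 11.56 with DMSO. CCT4, the δ subunit, had 11.50, 11.66 and 11.54 with DAAD2, against 11.37, 11.21 and 11.42 with DMSO. The smallest difference was that of CCT2, the β subunit, which has also been described as a receptor for the autophagy of protein aggregates, with 10.65, 10.94 and 10.63 with DAAD2, against 10.58, 10.47 and 10.56 with DMSO. In all 3 genes the groups were apart by little, at differences of 0.26, 0.24 and 0.20 with adjusted p of 0.276, 0.316 and 0.431 from limma, and in CCT2 the lead of DAAD2 replicate 2 made up much of it: without that array the difference was 0.10.

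**Figure D1:**
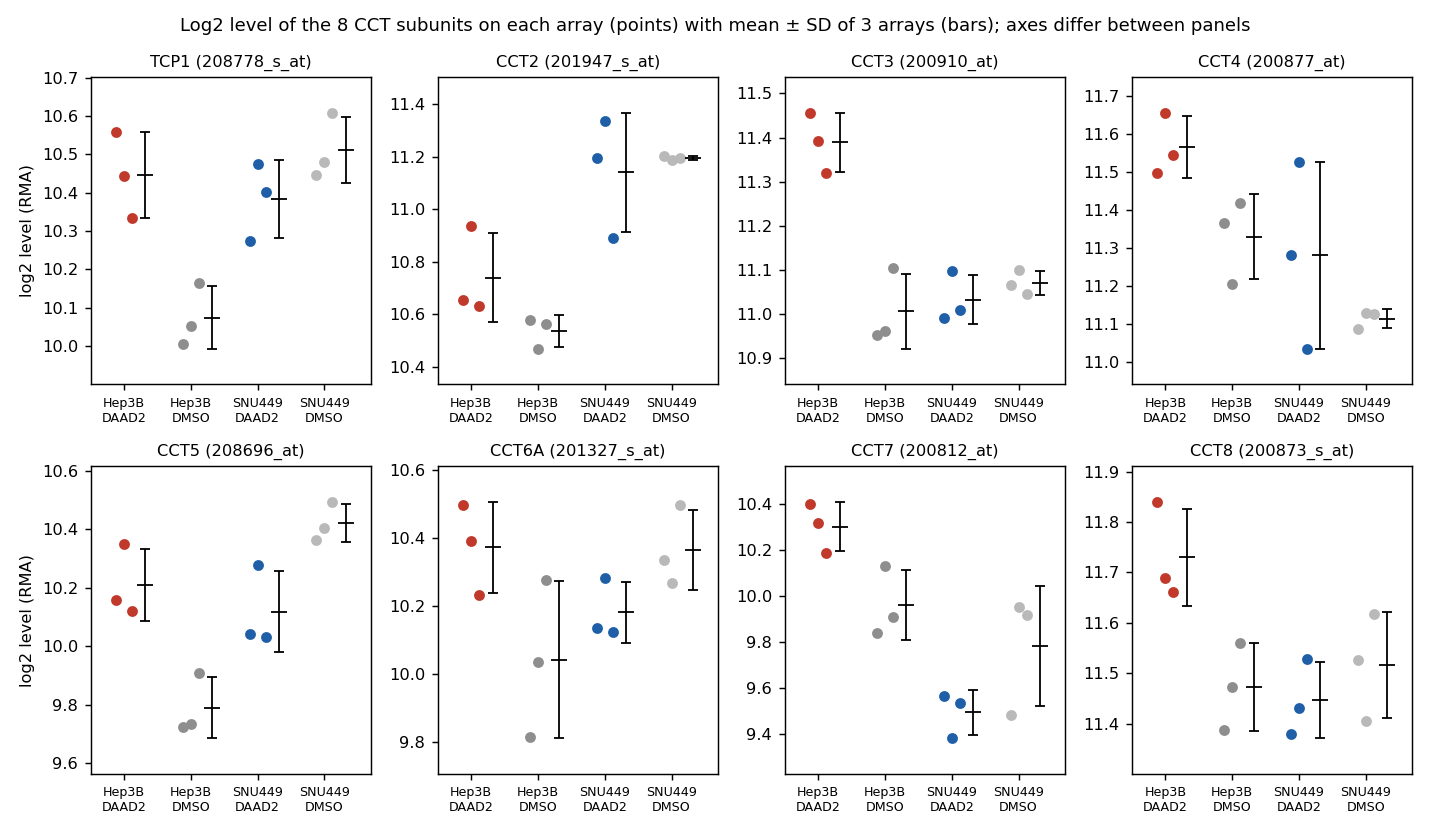
Log2 level (RMA, y axis) of the probe set that stands for each subunit on every array, by group on the x axis, with the mean ± SD of 3 arrays as black bars. In Hep3B the DAAD2 arrays lie above the DMSO arrays for 7 of 8 subunits, with overlap in CCT6A, while in SNU449 CCT5 is the one subunit whose DAAD2 arrays all lie below the DMSO arrays.

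The further probe sets were in part dimmer and showed less. CCT5 229068_at had 5.10, 5.04 and 4.71 in Hep3B with DAAD2, against 4.46, 4.54 and 4.67 with DMSO, a difference of 0.39 like that of the brighter probe set. The other probe sets of CCT2 (201946_s_at, 0.22), TCP1 (222010_at, 0.17) and CCT4 (227171_at, 0.12) had overlapping groups. TCP1 222011_s_at was the one with a lower mean in DAAD2-treated Hep3B (-0.22), on arrays that scattered from 6.97 to 8.29 with DAAD2 and from 6.98 to 8.56 with DMSO, and CCT8 210436_at, whose group means of 2.91 to 3.00 lay below the array medians, differed by 0.00.

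A part of the Hep3B shift belonged to bright probe sets in general. Against the median of 0.34 for the subunits, the median difference was -0.02 over all probe sets, but 0.12 over the 2539 probe sets with a mean log2 level of at least 9, where all 8 subunits lie. The median of the subunits exceeded that of the bright probe sets by 0.22. Quantile normalization and cyclic loess of the deposited values took the median of the subunits to 0.23 and 0.19 and that of the bright probe sets to 0.02 and -0.02, so that the excess over bright probe sets stayed at 0.21 in each.

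The excess over the DMSO mean was shared by the arrays but not equal. Over the 8 subunits, the median deviation from the DMSO mean of Hep3B was 0.40, 0.36 and 0.22 on DAAD2 replicates 1, 2 and 3, and all 8 subunits were above that mean on each of these arrays. On DMSO replicates 1, 2 and 3 it was -0.07, -0.03 and 0.09, with 2, 1 and 7 subunits above. The DAAD2 arrays thus lay above the DMSO arrays in this median too, and replicate 3 was the nearest of them. That replicate is the array with the highest 3′ to 5′ difference of ACTB, and the part of this in the levels was not tested. Without it the median difference in Hep3B was 0.40 and still 0 of the 15 probe sets passed.

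**Figure D2:**
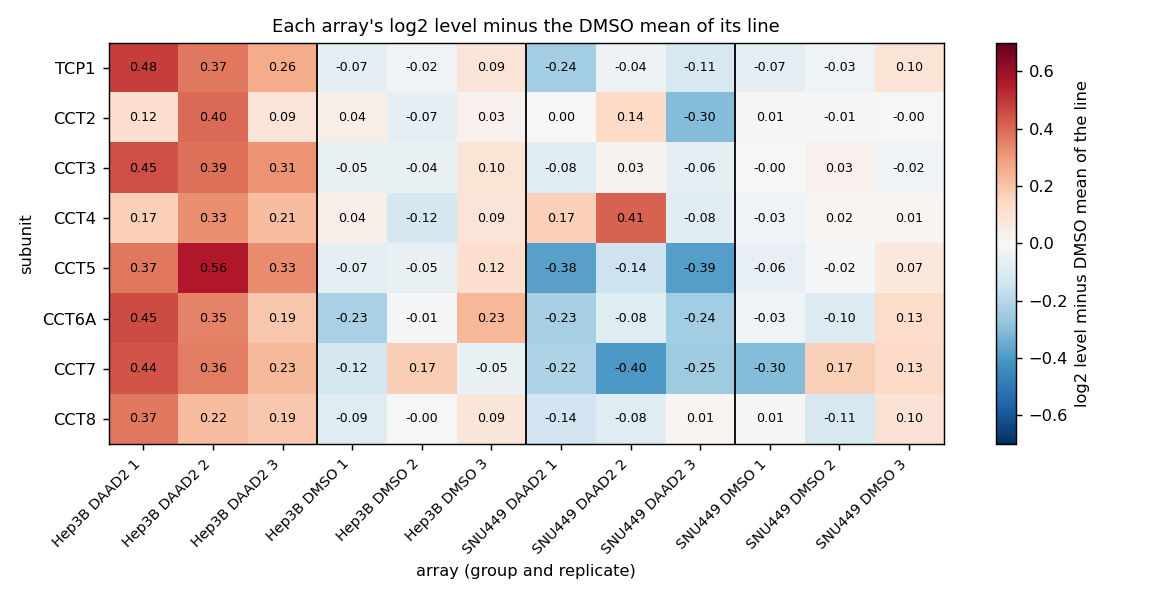
Log2 level of each subunit (rows) on each array (columns) minus the DMSO mean of its line, as colour and printed value. All 24 cells of DAAD2-treated Hep3B are above 0, whereas DAAD2-treated SNU449 has 6 of 24 cells above 0, CCT4 and CCT2 among them.

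In SNU449, at 20 μM, the subunits did not follow Hep3B. The mean was lower after DAAD2 for 7 of the 8 and higher for CCT4, with a median of -0.10, against -0.03 for all probe sets with a mean of at least 9. Without SNU449 DAAD2 replicate 2 the median was -0.16. In limma 0 of the 15 probe sets passed, where 1.04% of all probe sets rose and 0.417% fell. Unadjusted, 4 of the 15 (1 of the 8) had a p under 0.05 with a lower level, against 5.8% of all probe sets, and 0 a higher one. All DAAD2 arrays lay below all DMSO arrays for 5 of the 15 (1 of the 8), against 7.76%. Of these 5, 2 are the probe sets of CCT5, and the others belong to CCT6A (201326_at), CCT4 (227171_at) and TCP1 (222011_s_at).

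CCT5 again stood at the end, with 10.04, 10.28 and 10.03 in SNU449 with DAAD2, against 10.36, 10.41 and 10.49 with DMSO. The groups were apart in the opposite direction to Hep3B, by -0.30 (standard error 0.12, adjusted p = 0.322 from limma), and CCT5 229068_at gave -0.33. CCT6A 201326_at had 9.43, 9.49 and 9.38 with DAAD2, against 9.72, 9.83 and 9.95 with DMSO, a difference of -0.40 (standard error 0.11, adjusted p = 0.147 from limma). The brighter CCT6A probe set, at 10.14, 10.28 and 10.12 with DAAD2, against 10.33, 10.27 and 10.50 with DMSO, overlapped at -0.18.

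CCT7 stood at 9.57, 9.38 and 9.54 in SNU449 with DAAD2, against 9.48, 9.95 and 9.92 with DMSO. Its mean difference of -0.29 came with overlap, because DMSO replicate 1 was as low as the treated arrays, and it was -0.44 without that array. TCP1 had 10.27, 10.47 and 10.40 with DAAD2, against 10.45, 10.48 and 10.61 with DMSO, a difference of -0.13. The differences of CCT8 (-0.07), CCT2 (-0.05) and CCT3 (-0.04) were smaller than their standard errors of 0.11, 0.13 and 0.10.

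CCT4 and CCT2 were uneven across the treated SNU449 arrays. CCT4 had 11.28, 11.53 and 11.03 with DAAD2, against 11.09, 11.13 and 11.13 with DMSO, and CCT2 had 11.20, 11.34 and 10.89 with DAAD2, against 11.20, 11.19 and 11.19 with DMSO. The treated arrays scattered more than the controls, with an SD of 0.25 against 0.02 for CCT4 and of 0.23 against 0.01 for CCT2. Replicate 2 was the highest and replicate 3 the lowest treated array in both genes. Replicate 2 is the array with the high 3′ to 5′ ratio of GAPDH, and the part of that in these levels was not tested. Without it CCT4 differed by 0.04 and CCT2 by -0.15, and still 0 of the 15 probe sets passed. The interval of the SNU449 difference, at 95% and unadjusted, reached at most 0.48 upward (CCT4) and -0.62 downward (CCT7) over the 8 subunits.

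**Figure D3:**
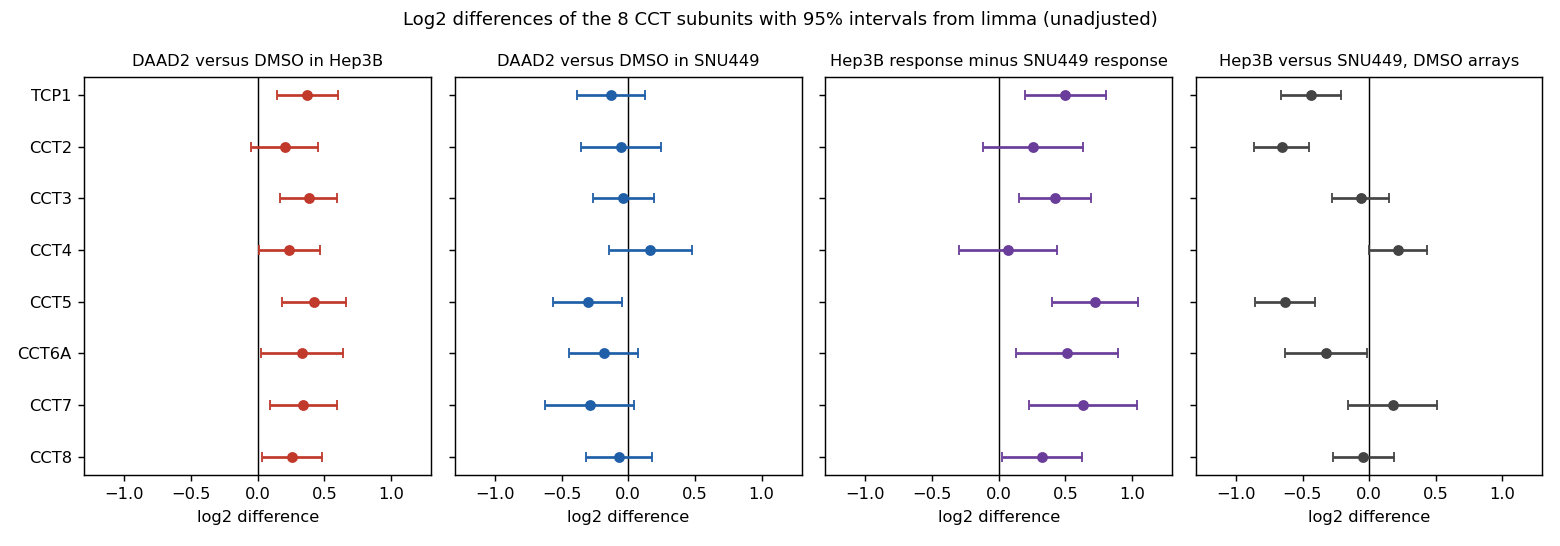
Log2 differences (x axes) of the 8 subunits (rows) with unadjusted 95% intervals from limma, for DAAD2 versus DMSO in Hep3B, the same in SNU449, the difference between these responses, and Hep3B versus SNU449 with DMSO. In Hep3B all 8 points are above 0 and 7 intervals exclude 0, in SNU449 the intervals of 7 subunits include 0 and that of CCT5 lies below it.

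Whether the responses of the lines differ was tested by the interaction term over all 12 arrays. This term is the difference of the 2 responses within the lines and uses the same arrays, so it is not independent of them. The comparison of untreated cells also shares its control arrays with these. The response was larger in Hep3B than in SNU449 for all 8 subunits, by 0.07 (CCT4) to 0.72 (CCT5), with a median of 0.46, against 0.14 for all probe sets with a mean of at least 9. Of the 15 probe sets 2 passed, both with a higher response in Hep3B, where 1.21% of all probe sets passed in this direction and 0.797% in the other. Unadjusted, 8 of the 15 (6 of the 8) had a p under 0.05 in this direction, against 8.05% of all.

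The 2 are CCT6A 201326_at, at 0.96 (standard error 0.16, adjusted p = 0.0115 from limma), and CCT5 208696_at, at 0.72 (standard error 0.15, adjusted p = 0.0286 from limma). CCT5 229068_at gave 0.73 (adjusted p = 0.0585) and CCT6A 201327_s_at 0.52 (adjusted p = 0.185) in the same limma fit. CCT6A 201326_at passed without each of the 12 arrays in turn, while CCT5 208696_at lost its call without any one of 8 arrays (replicates 1 and 2 of Hep3B DAAD2 and of Hep3B DMSO, 1 and 3 of SNU449 DAAD2, and 2 and 3 of SNU449 DMSO), at adjusted p of 0.0554 to 0.0855. With the replicate number as a block within each line, neither passed (adjusted p = 0.0531 for CCT6A 201326_at and 0.0986 for CCT5 208696_at from limma). Without SNU449 DAAD2 replicate 2 the same count of 2 was found.

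Next in order were CCT7 at 0.63 (adjusted p = 0.119), TCP1 at 0.50 (adjusted p = 0.0994) and CCT3 at 0.42 (adjusted p = 0.12 from limma). CCT8 followed at 0.33 and CCT2 at 0.26, which was 0.13 without SNU449 DAAD2 replicate 3 and 0.16 without Hep3B DAAD2 replicate 2. CCT4 was last on its brighter probe set, since that probe set had a higher mean after DAAD2 in both lines. The interval of that probe set, -0.30 to 0.44, includes both no difference and one of the size of CCT3. The dimmer CCT4 227171_at had a response difference of 0.34 (adjusted p = 0.367 from limma), close to that of CCT8. In SNU449 CCT4 227171_at differed by -0.22, with all DAAD2 arrays below all DMSO arrays. The CCT4 probe sets thus did not share a direction in SNU449, and the last place of CCT4 rests on the brighter one.

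The levels of untreated cells were compared as well, Hep3B with DMSO against SNU449 with DMSO. Of the 15 probe sets 7 were lower in Hep3B and 0 higher, where 14.8% of all probe sets were lower and 14.5% higher, and the 7 belong to TCP1, CCT2, CCT5 and CCT6A. CCT2 was at 10.58, 10.47 and 10.56 in Hep3B and at 11.20, 11.19 and 11.19 in SNU449, lower by a log2 difference of -0.66 (standard error 0.09, adjusted p = 4.46e-04 from limma). CCT5, with the DMSO values given above, was lower in Hep3B at -0.63 (adjusted p = 0.00108), TCP1 at -0.44 (adjusted p = 0.00830) and CCT6A 201326_at at -0.85 (adjusted p = 0.00100 from limma). On each of these probe sets the arrays of the lines did not overlap. The brighter CCT6A probe set, 201327_s_at, had overlapping arrays and a difference of -0.32 (adjusted p = 0.113 from limma). The other way round, TCP1 222011_s_at had a higher mean in Hep3B (0.59, adjusted p = 0.236 from limma), so the 3 probe sets of TCP1 did not share a direction.

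CCT5 229068_at showed the widest gap, with 4.46, 4.54 and 4.67 in Hep3B and 6.06, 6.34 and 6.46 in SNU449 (log2 difference -1.73, adjusted p = 7.93e-06 from limma). The brighter CCT5 probe set differed by -0.63, so the 2 probe sets share the direction and not the size. TCP1 222010_at (-0.79) and CCT2 201946_s_at (-0.39) were also lower in Hep3B, the second of these with an adjusted p of 0.0441 that did not hold without Hep3B DMSO replicate 1 or 3 or SNU449 DMSO replicate 2 or 3 (0.12 to 0.142). The subunits were not lower in Hep3B as a whole: CCT3 (-0.06, 95% interval -0.28 to 0.15) and CCT8 (-0.04, -0.27 to 0.19) had intervals around 0, and CCT4 (0.22, adjusted p = 0.143) and CCT7 (0.18, adjusted p = 0.455 from limma) had the higher mean in Hep3B. When the probe sets of a gene were averaged first, 3 genes passed, CCT2, CCT5 and CCT6A, and TCP1 did not (adjusted p = 0.286 from limma).

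Set in order over the 4 groups, CCT5 averaged 10.21 ± 0.12 in Hep3B with DAAD2 and 9.79 ± 0.10 in Hep3B with DMSO, 10.12 ± 0.14 in SNU449 with DAAD2 and 10.42 ± 0.07 in SNU449 with DMSO (SD, n = 3 each). The treated groups were neighbours and overlapped, and the untreated groups were the ends of the order and overlapped with no other group. TCP1 and CCT6A 201326_at had the same ends. TCP1 averaged 10.45 ± 0.11 and 10.07 ± 0.08 in Hep3B with DAAD2 and DMSO, and 10.38 ± 0.10 and 10.51 ± 0.09 in SNU449 with DAAD2 and DMSO, and the 3 upper groups overlapped with their neighbours. CCT7 was ordered by line, 10.30 ± 0.11 and 9.96 ± 0.15 in Hep3B with DAAD2 and DMSO, and 9.50 ± 0.10 and 9.78 ± 0.26 in SNU449 with DAAD2 and DMSO, with Hep3B with DAAD2 apart at the top and overlap between each of the lower neighbours. In CCT3 and CCT8 one group stood apart, Hep3B with DAAD2, at 11.39 ± 0.07 above the range of 10.95 to 11.10 of the other 9 arrays for CCT3, and at 11.73 ± 0.10 above the range of 11.38 to 11.62 for CCT8. CCT2 ran by line with both SNU449 groups above both Hep3B groups in mean, and the treated groups overlapped by 1 array of each. CCT4 and CCT6A had overlap between most neighbours.

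As a description over 12 arrays, subunits varied together to unequal degrees. With the mean of each line taken off, the Pearson correlation of 28 pairs of subunits had a median of 0.65, and 27 were positive. With the mean of each group taken off, which leaves the scatter between replicates only, the median was 0.29 and 23 were positive. The pairs then highest were CCT2 with CCT4 (0.90), TCP1 with CCT6A (0.83) and TCP1 with CCT8 (0.76), and the lowest CCT2 with CCT8 (-0.35). All points share arrays and their normalization. Among 5582 other genes with a mean of at least 7, those whose line-centred profile was most like the mean of the 8 subunits were KPNB1, a nuclear import receptor (r = 0.98), PREP, a prolyl endopeptidase (0.98), MAP4K4, a kinase (0.97), PUS7, a pseudouridine synthase (0.97), and ACO1, the cytosolic aconitase and iron regulatory protein (0.96). Of these, KPNB1 had 11.31, 11.26 and 11.14 in Hep3B with DAAD2, against 10.72, 10.78 and 10.86 with DMSO, and 11.18, 11.24 and 11.16 in SNU449 with DAAD2, against 11.31, 11.35 and 11.49 with DMSO. Its response differed between the lines by 0.64 (adjusted p = 0.0274 from limma), a call lost without 7 of the 12 arrays. KPNB1 was chosen on these same arrays for its likeness to a profile whose response differs between the lines, so this is no separate test.

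The genes around CCT were taken in order of their part in folding. Of prefoldin, which delivers actin and tubulin chains, 5 of 6 genes had a probe set of a single symbol (PFDN6 had none). In Hep3B 0 passed at a median of 0.37, with 3 of the 5 higher in mean and PFDN1 (-0.05) and PFDN5 (-0.15) lower. The SNU449 median was 0.09. PFDN4 was at 11.21, 11.30 and 11.23 in SNU449 with DAAD2, against 10.52, 10.57 and 10.35 with DMSO, and rose by 0.77 (adjusted p = 0.0171 from limma), a call that was lost without any of 4 of the 6 arrays. It was also higher in Hep3B (0.57, adjusted p = 0.226 from limma). The responses of VBP1, the prefoldin 3 subunit, and PFDN5 differed between the lines, VBP1 by 0.63 (adjusted p = 0.0262) with the higher response in Hep3B and PFDN5 by -0.63 (adjusted p = 0.0380 from limma) with the higher response in SNU449, and these calls were lost without 7 and 10 of the 12 arrays. Of the CCT co-factors of the phosducin-like kind and their partners, 0 of 4 measured genes passed in either line (medians 0.31 and 0.02). TXNDC9, a thioredoxin-like CCT binder, was at 0.32 in Hep3B and -0.29 in SNU449.

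Among the substrates, 18 of 19 listed actin and tubulin genes were measured (ACTG1 had no probe set of a single symbol). Their median was 0.20 in Hep3B, where 0 passed, and -0.15 in SNU449. In SNU449 TUBB4A rose by 0.92 (adjusted p = 0.0260 from limma, lost without 4 of the 6 arrays) and 0 fell. TUBA1A had the largest of these differences in Hep3B, 2.64 (adjusted p = 0.0706 from limma), with every DAAD2 array above every DMSO array. Its mean with DMSO was 4.49 in Hep3B and 11.63 in SNU449, where it differed by -0.10 after DAAD2. The responses of 6 of the 18 differed between the lines, all with the higher response in Hep3B: TUBA1A (2.75), TUBB6 (1.13), TUBA1C (0.73), TUBA1B (0.69), the γ-tubulin gene TUBG1 (0.66) and TUBB (0.59). TUBA1A and TUBB6 passed without each array in turn, and the others lost the call without 4 to 11 of the 12 arrays. With the replicate block 2 tubulin genes were called in place of 6. TUBB, the main β-tubulin gene of most cells, stood at 12.78, 12.91 and 12.71 in Hep3B with DAAD2, against 12.45, 12.44 and 12.47 with DMSO, and at 12.29, 12.49 and 12.24 in SNU449 with DAAD2, against 12.54, 12.58 and 12.63 with DMSO. These groups were apart in both lines and in opposite directions, as for CCT5. The probe sets of TUBB, TUBA1B and TUBA1C are of the x_at kind, whose probes can also match related transcripts, so these 3 are not certain to be separate measurements of those genes. The 7 tubulin cofactor genes, which act after CCT, had medians of 0.08 in Hep3B and -0.16 in SNU449, and 0 passed in either.

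Of 16 other substrates 0 passed in Hep3B (median 0.15). In SNU449 CCNE1, cyclin E1, fell by 0.73 (adjusted p = 0.0365 from limma, lost without 5 of the 6 arrays) and its response differed by 0.89 (adjusted p = 0.0158, lost without 1 of 12 arrays). The chaperonin-like genes CCT6B, CCT8L2, MKKS, BBS10 and BBS12, related in sequence to CCT but not general parts of it, had medians of 0.02 and 0.04 in the lines, and 0 of 5 passed in any of the treatment tests.

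**Figure D4:**
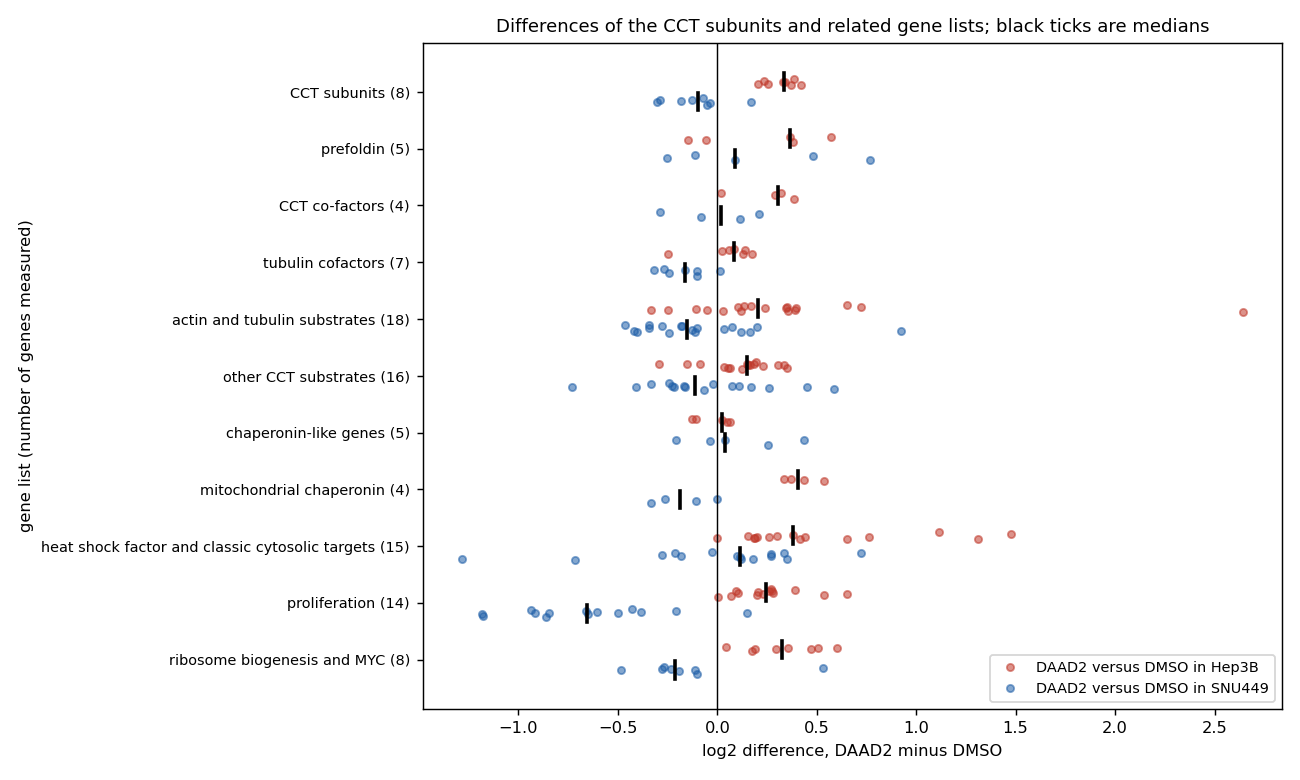
Log2 differences, DAAD2 minus DMSO (x axis), of the 8 CCT subunits and of the genes of 10 related lists (rows, with the number measured), Hep3B in red above SNU449 in blue, each dot one gene and each black tick a median. The median of the CCT subunits is 0.34 in Hep3B and -0.10 in SNU449, close to those of ribosome biogenesis and MYC (0.33 and -0.21), while the proliferation list has the lowest SNU449 median, -0.66.

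The mitochondrial chaperonin, the HSPD1 and HSPE1 rings with their partners HSPA9 and GRPEL1, had medians of 0.40 in Hep3B and -0.19 in SNU449, with 0 of 4 genes passing in either line. The response of HSPA9, the mitochondrial HSP70, differed by 0.80 (adjusted p = 0.0189 from limma, lost without 5 of 12 arrays). HSF1 and classic cytosolic chaperones of the heat shock response were listed as 20 genes. Of these, HSF2, HSPA1A, HSPA1B, HSPA8 and AHSA1 had no probe set of a single symbol. The 15 genes measured had medians of 0.38 and 0.12. None passed in Hep3B, where HSPA4L (1.48), HSPH1 (1.31), CHORDC1 (1.12) and BAG3 (0.76) had the largest differences, all beyond every CCT subunit (0.42 at most). BAG3, a co-chaperone of HSP70, fell in SNU449 by 1.28 (adjusted p = 0.00217 from limma) and kept the call without each array in turn, but not without moderation of the variances (adjusted p = 0.0976). Its response (2.05) and that of HSPH1 (1.19) differed between the lines.

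Proliferation and ribosome biogenesis genes had medians of the same signs as the subunits. In Hep3B 14 of 14 proliferation genes were higher in mean (median 0.24) and 0 passed, and in SNU449 7 of 14 fell (median -0.66), among them MCM2 (-1.18), RRM2 (-1.18), MCM4 (-0.94) and the proliferation marker MKI67 (-0.85). Each of the 7 lost its call without 3 to 5 of the 6 arrays, and with the replicate number as a block 1 gene of the list was called, without moderation 0. The responses of 9 of the 14 differed, all with the higher response in Hep3B, against 3 without moderation. Of 8 ribosome biogenesis and MYC genes 0 passed in either line (medians 0.33 and -0.21), and the response of NCL, nucleolin, differed by 0.99 (adjusted p = 0.0106 from limma). The part of cell division in the levels of the CCT genes was not tested, and in cultured cells fewer dividing cells and less RNA per cell cannot be told apart. At the same time 0 of 7 hepatocyte markers passed in Hep3B (median -0.32), so the higher means in Hep3B were not shared by that list.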

How the data were processed

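Total RNA of 12 samples was hybridised to Affymetrix U133 Plus 2.0 arrays. The deposited log2 values were made by the authors with RMA (background correction, quantile normalization and summary of probes), its version not given in the sources used here. RMA draws arrays towards one distribution, so a shift of most genes would be lost. From these values limma 3.58.1 in R 4.3.3 was fitted per line (6 arrays), on the DMSO arrays (6) and on all 12 arrays for the difference between responses, over 54613 probe sets after 62 control probe sets were left out, with Benjamini-Hochberg adjustment over all of them and a call at an adjusted p under 0.05. The fits were tested on simulated data with changes larger than the treatment differences of the subunits. This cannot show how often differences of the size seen for the subunits would be called. Every column of values was used (0 left out). Arrays give no read depth, and their number limits the precision.

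The probe set with the highest mean stood for a gene, and other genes were named if they were called or had one of the largest differences of a list. The members and lists were chosen with earlier results of these data known. Replicates of one number did not deviate together (correlations of -0.27 to 0.09 within a line), so no block was used. Alternatives covered the samples fitted, a replicate block, leaving out dim probe sets, scaling, the variance model, the call rule, the mean of a gene's probe sets and leaving out each array. Promoter windows were taken from RefSeq, and figures were drawn with matplotlib 3.10.9 in Python 3.11.15.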

Additional observations from a re-analysis of the deposited data

Results flagged for a closer look

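For each of the following, the interaction term of limma over all 12 arrays gave a response to DAAD2 that differed between Hep3B and SNU449, as the log2 response of Hep3B minus that of SNU449. Dose differs with the line, so line and dose cannot be told apart. Among the CCT probe sets these were CCT6A 201326_at (0.96) and CCT5 208696_at (0.72). In prefoldin they were VBP1 (0.63) and, with the sign turned, PFDN5 (-0.63). In the tubulins they were TUBA1A (2.75), TUBB6 (1.13), TUBA1C (0.73), TUBA1B (0.69), TUBG1 (0.66) and TUBB (0.59), and among other substrates CCNE1 (0.89). The chaperones HSPA9 (0.80), BAG3 (2.05) and HSPH1 (1.19) were also of this kind.

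Of the proliferation genes, RRM2 (1.72), MCM4 (1.33), MCM2 (1.25), MKI67 (1.12), MCM5 (1.11), MCM7 (0.96), MCM3 (0.93), TOP2A (0.87) and CDK1 (0.83) differed in this way, as did the nucleolar gene NCL (0.99). The genes of profiles like that of the subunits were KPNB1 (0.64), PREP (1.04) and PUS7 (1.14), which were chosen for that likeness on these arrays, so their calls are no separate test. Several of these calls were lost when single arrays were left out. Among the proliferation genes, NCL and the genes of like profile, CDK1 lost its call without 9 of the 12 arrays in turn, PUS7 and KPNB1 without 7, TOP2A without 4 and MCM3 without 1 (Hep3B DAAD2 replicate 2), while the other 8 kept it. Among the CCT probe sets, substrates and chaperones, TUBB lost it without 11, PFDN5 without 10, TUBA1C without 9, CCT5 208696_at without 8, VBP1 without 7, TUBA1B without 6, HSPA9 without 5, TUBG1 without 4 and CCNE1 without 1 (SNU449 DMSO replicate 3, adjusted p = 0.0516 from limma), while CCT6A 201326_at, TUBA1A, TUBB6, BAG3 and HSPH1 kept it.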

How the results depend on the processing

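The counts of CCT probe sets called stayed at 0 in Hep3B and in SNU449 under all alternatives but one, the trended and robust variances, with 1 in Hep3B. With the replicate block, 0, 0 and 7 probe sets were called in Hep3B, in SNU449 and between the DMSO groups. For the difference in response 0 were called in place of 2. The labels do not say whether arrays of one replicate number belong together. The block also took the called genes of related lists to 0 in SNU449 for prefoldin, for actin and tubulin and for other substrates (1 each without it) and to 1 for proliferation (7), and for the difference in response to 0 for prefoldin (2), 2 for actin and tubulin (6), 0 for the mitochondrial chaperonin (1) and 1 for heat shock (2). Without moderation the lists had 0 calls in SNU449. The count of CCT probe sets called for the difference in response was 1 with cyclic loess or no moderation and 4 with trended and robust variances. It was 4 at an adjusted p under 0.10 and 4 at a fold over 1.5 with p under 0.05. With single arrays left out it was 1 to 4, with 4 without SNU449 DMSO replicate 1. Between the DMSO groups 3 CCT genes were called with the mean of a gene's probe sets. Medians over the subunits became 0.23 (quantile) and 0.19 (cyclic loess) in Hep3B, -0.17 in SNU449 with the mean of probe sets, and 0.35 and 0.30 for the difference in response with the same 2 scalings. The median between the DMSO groups was -0.28 to -0.12 with single arrays left out, the first without Hep3B DMSO replicate 3. The cause was not tested.

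Signs turned only for values near 0, for probe sets of wide scatter, or where probe sets of unlike sign were averaged. With single arrays left out, CCT8 210436_at ranged from -0.0597 to 0.0501 in Hep3B, from -0.0257 to 0.138 in SNU449, from -0.104 to 0.0485 between the DMSO groups and from -0.135 to 0.0296 for the difference in response, where it was also 0.00187 (centred), 0.0319 (quantile) and 0.0394 (cyclic loess). TCP1 222011_s_at ranged from -0.62 to 0.17 in Hep3B and from -0.16 to 0.63 for the difference in response. The mean of the CCT4 probe sets was -0.0261 in SNU449, where 200877_at alone gave 0.17 and 227171_at -0.22. For the difference in response CCT4 200877_at was -0.0803 with cyclic loess and -0.0536 to 0.193 with single arrays left out. CCT2 201947_s_at ranged from -0.152 to 0.0707 in SNU449, and CCT8 200873_s_at from -0.0979 to 0.00755 between the DMSO groups. In the last comparison TCP1 222011_s_at was higher in Hep3B without DMSO replicate 1 of Hep3B (0.99, adjusted p = 0.0110 from limma).

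Over all probe sets the number called ran from 0 to 885 in Hep3B (0 as reported) and from 0 to 1850 in SNU449 (798). Between the DMSO groups it ran from 11336 to 18705 (15981), where 11336 is of the 17353 probe sets left without dim ones. For the difference in response it ran from 337 to 3703 (1096). With the mean of a gene's probe sets, 8133 of 19776 genes were called between the DMSO groups. The calls thus depend on the rule. With 3 arrays a group, differences of the size seen in Hep3B did not pass after adjustment, and 210436_at of CCT8 lay below the array medians on every array.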
